A study of Mus musculus with 8 samples.

Results

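A group of 10 genes that shape, divide and clear mitochondria were followed in the livers of mice lacking the ubiquitin ligase Huwe1. They were chosen by name: the fusion genes Mfn1, Mfn2 and Opa1, the fission genes Dnm1l, Fis1, Mff and Mief1, the mitophagy genes Pink1 and Bnip3, and Immt, which organises the inner membrane. All 10 were found among the 16640 genes of the authors' deposited table. The study sequenced bulk RNA of whole liver from 8 chow-fed mice aged 1 year, 4 labelled WT and 4 labelled as carrying a liver-specific Huwe1 KO. The sources used here do not give the promoter that drove the deletion, the strain, the sex or the exons removed. The table holds 1 normalized expression value per gene and group, and values per liver were not analysed here. Each level below is therefore a group value without its own spread. The error given is the standard error (SE) of the log2 fold change in KO relative to WT that the deposited p implies. The log2 ratio of the levels equals the deposited fold change to within 4.71e-08, so if the authors shrank the fold changes, each level pair, percent and interval below carries that shrinkage. A gene was called changed where the deposited adjusted p was under 0.05.

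Mitochondria form a network that is joined by fusion and cut by fission. Mitofusins on the outer membrane and OPA1 on the inner membrane are GTPases that fuse it. The dynamin DRP1, encoded by Dnm1l, is brought to the outer membrane by receptors such as FIS1, MFF and MIEF1 and cuts it. Damaged pieces are removed by mitophagy, either through the kinase PINK1 or through receptors such as BNIP3. The protein of Mfn2 is a known target of HUWE1, which marks it with ubiquitin for degradation. The values here are RNA levels, and no protein was measured.

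Huwe1 itself (chromosome X, 151800785 to 151935417 in GRCm38) went from 2666 in WT to 1784 in KO in the authors' deposited table, or 66.9% of WT (adjusted p = 0.000425). Its remaining RNA can come from cells without the deletion or from exons outside the deleted part, and the deposited fold changes may be shrunken toward 0. In bulk tissue, fewer cells of a type and less RNA per cell cannot be told apart. Defining hepatocyte markers were abundant, with 2 of 8 listed markers called higher and 0 lower in the authors' deposited table. For the other cell types, 2 of 7 neutrophil markers and 1 of 7 endothelial markers were called higher, and none of 7 Kupffer, 7 stellate, 6 cholangiocyte, 6 lymphocyte and 7 erythroid markers was called by DESeq2 (of these 33 markers, 2 had an unadjusted p under 0.05). Of all genes 4.41% were called higher and 5.56% lower. The 2 called neutrophil markers had low levels, S100a9 with 25.6 in WT and 79.1 in KO and Retnlg with 3.78 and 11.3. Of the 7 neutrophil markers 6 had a log2 fold change above 0 and 1, Ly6g, below 0 (7.52 in WT, 5.02 in KO). The summed level of the neutrophil markers was 135 in WT and 268 in KO in the deposited table, of the endothelial markers 1971 and 2189, and of the hepatocyte markers 1790390 and 2314890. Most of the hepatocyte rise is that of albumin (Alb), with 1192100 and 1629590 in the deposited table (adjusted p = 0.0631), which was not called. In the lists without a call, the sums were 2210 in WT and 2647 in KO for Kupffer and 4638 and 5148 for stellate markers. They were 902 and 1622 for cholangiocyte, 118 and 139 for lymphocyte and 17275 and 16505 for erythroid markers. Among the cholangiocyte markers, Spp1 alone had 722 and 1410 in the deposited table (adjusted p = 0.174). The part of these cell types in the results below was not tested.

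Promoter sequence is shown for Mfn2, the fusion gene that fell, and for Bnip3, the member of highest level per length. Sequences are those of RefSeq for GRCm38.p6, where all 10 members had at least 1 promoter window of 300 bases, 250 before and 50 after a start site. The bases just before the outermost RefSeq start of Mfn2 (chr4:147904910-147905159, minus strand) held none of the motifs searched. A stretch across an inner start of Mfn2 at 147904698 (chr4:147904686-147904715, minus strand) held the hypoxia response core ACGTG, in capitals. The bases before the start of Bnip3 (chr7:138909520-138909756, minus strand) held 1 E-box CACGTG, in capitals, which contains the hypoxia core on both strands.
Mfn2, outermost start: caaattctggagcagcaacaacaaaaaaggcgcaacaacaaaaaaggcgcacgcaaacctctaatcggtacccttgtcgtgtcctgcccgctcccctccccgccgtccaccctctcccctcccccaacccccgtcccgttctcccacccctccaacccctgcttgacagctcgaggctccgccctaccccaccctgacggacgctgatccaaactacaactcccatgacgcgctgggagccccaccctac
Mfn2, inner start: tggcgccggctagtgACGTGttgggtgtga
Bnip3: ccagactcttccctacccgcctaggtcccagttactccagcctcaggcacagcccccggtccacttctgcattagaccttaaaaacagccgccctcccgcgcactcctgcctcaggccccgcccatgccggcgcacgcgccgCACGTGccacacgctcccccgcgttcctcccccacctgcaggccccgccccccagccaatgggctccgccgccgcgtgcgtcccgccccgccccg

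On either strand, ACGTG was found in windows of 2 of the 10 members, Mfn2 and Bnip3, and of 21.8% of all 27025 genes with a window. CACGTG was found for Bnip3 and for 8.09% of all genes. The motif AAGGTCA of oestrogen-related receptors, present for 5.38% of all genes, and the forkhead motif TGTTTAC, present for 4.05%, were found for none of the members. A match is a string of letters in the reference and says nothing on binding in these livers.

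The members spanned a wide range of levels. Divided by the gene length in the authors' deposited table, Bnip3 was highest with a WT level of 1992 per kb. Pink1 followed with 1413 per kb and Fis1 with 1151 per kb in WT by the same deposited lengths. Immt (687 per kb) and Mfn2 (476 per kb) lay in the middle, followed by Mff (239), Opa1 (197), Dnm1l (186), Mfn1 (147) and Mief1 (90.3 per kb), all as WT levels from the deposited table. The order in KO was nearly the same, with Fis1 at 1357 per kb above Pink1 at 1120 per kb, and Dnm1l at 187 per kb above Opa1 at 168 per kb. Against all genes of the table, the WT levels per kb stood between the 64.0th percentile for Mief1 and the 96.0th for Bnip3. All members were thus well expressed. Which neighbours in this order differ beyond the spread between livers was not tested, and the order rests on the deposited lengths.

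**Figure D1:**
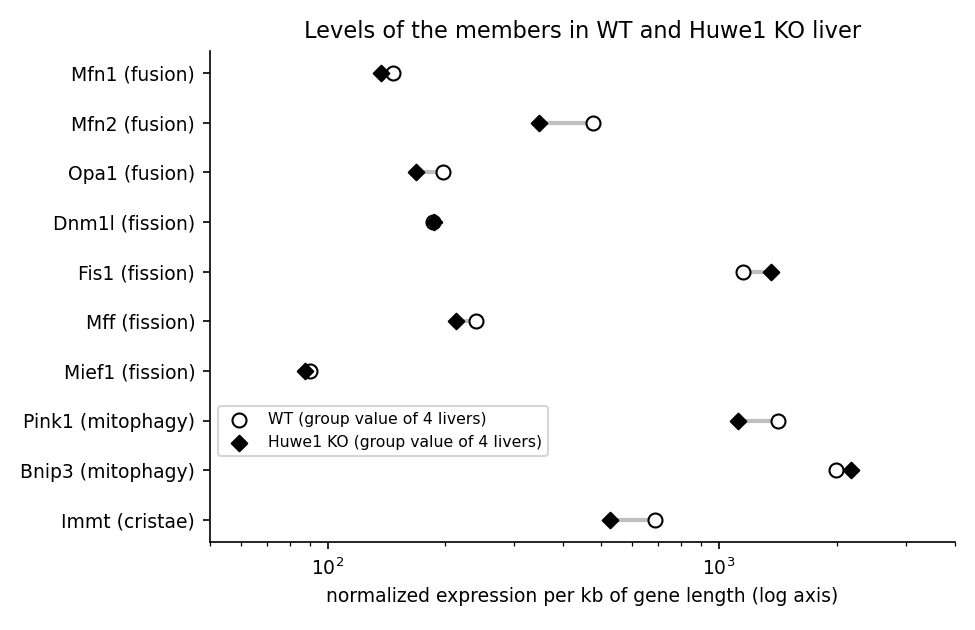
Normalized expression per kb of gene length (log axis) of the 10 members, with open circles for WT and filled diamonds for Huwe1 KO, each the authors' value for a group of 4 livers. Mfn2, Immt and Pink1 lie to the left in KO by the widest steps, while the symbols of Dnm1l and Mief1 nearly coincide.

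Of the 10 members, 2 were called lower in KO and 0 higher by the authors' deposited p, and 4 had an unadjusted p under 0.05. The 2 that fell were Mfn2 and Immt. Of all genes tested 9.97% were called, 5.56% lower and 4.41% higher, and among 4067 genes with mean values in the range of the members 16.6% were called, 10.9% lower and 5.73% higher. Of 1384 genes that the table annotates to the mitochondrion, 18% were called, 16.1% lower and 1.88% higher, with a median log2 fold change of -0.14. The members' median was -0.13, and that of all genes was 0.02. An unadjusted p under 0.05 was found for 3408 of all 16640 genes, 1320 of those 4067 and 459 of those 1384. With 10 members, 2 lower calls lie near the share for mitochondrial genes as a class. The annotation class was chosen after the members' values were seen.

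**Figure D2:**
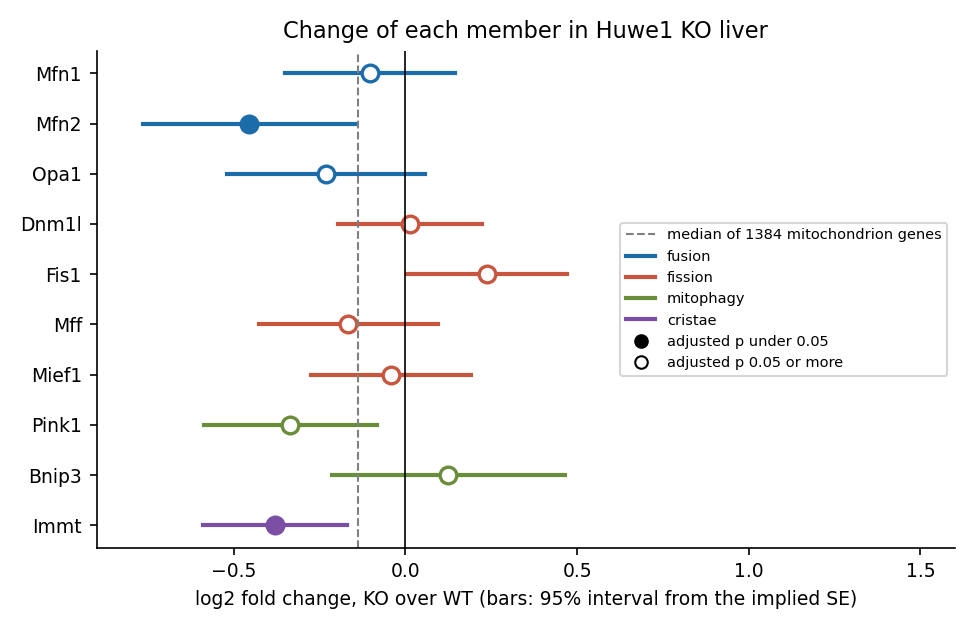
Log2 fold change in KO relative to WT for each member, with bars for the 95% interval from the implied SE, filled points for an adjusted p under 0.05, colours for the role, and a dashed line at the median of 1384 genes annotated to the mitochondrion (-0.14). Only the bars of Mfn2, Pink1 and Immt lie wholly below 0, and that of Fis1 starts just above 0.

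Among the fusion genes, Mfn2 (Entrez ID 170731; chromosome 4, 147873586 to 147904909 in GRCm38) fell. The authors' deposited table gives 2129 for WT and 1553 for KO, 73.0% of WT, with a 95% interval of 58.8% to 90.5%. The log2 fold change was -0.45 (SE 0.16, adjusted p = 0.0439) in that deposited table. The call is close to the threshold: by unadjusted p, Mfn2 stood at place 1577 of 1659 called genes, and at its SE a log2 change of 0.45 was the smallest that could be called. The call was lost when fold changes were centred on the median of the eighth of genes with the highest values (-0.37, adjusted p = 0.121). It was also lost when a trend with the length and level of genes was taken out (-0.37, adjusted p = 0.144). Over all alternatives the adjusted p ranged from 0.0291 to 0.144.

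Mfn1 (chromosome 3, 32529443 to 32579225), the other mitofusin, had deposited values of 665 in WT and 619 in KO, which is a log2 change of -0.10 (SE 0.13, adjusted p = 0.771). Its 95% interval ran from 78.4% to 111% of WT, so a change of the size of the Mfn2 point value lies outside it. The difference between the mitofusins was not tested, as that needs values per liver. Per kb, Mfn2 was 3.24 times as high as Mfn1 in WT and 2.54 times in KO by the deposited values. Mfn1 shares 639 bases with the gene Gnb4, whose deposited value was 63.4 in WT and 67.2 in KO, and the sources used here do not say whether counting used strand. Other members overlap genes without a deposited value. Immt shares 855 bases with the pseudogene Gm17825, and Bnip3 988 with the pseudogene Gm18258. Mff shares 1032 bases with C430014B12Rik and 2806 with Gm39668, and Pink1 shares 69 with Mir7019. Opa1 (chromosome 16, 29579281 to 29663127), which fuses the inner membrane and keeps cristae tight, had 1174 in WT and 1000.4 in KO in the authors' deposited table. That is a log2 fold change of -0.23 (SE 0.15, adjusted p = 0.407), with an interval of 69.8% to 104% of WT.

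The fission genes gave 0 calls of 4 by DESeq2's deposited p, with 1 at an unadjusted p under 0.05. Dnm1l (chromosome 16, 16312228 to 16359038), the scission dynamin, had deposited values of 732 in WT and 739 in KO (log2 fold change 0.01, SE 0.11, adjusted p = 0.974). Its interval of 87.3% to 117% of WT is among the tightest of the members. Fis1 (chromosome 5, 136953275 to 136966234), a small tail-anchored receptor, had 938 in WT and 1106 in KO in that deposited table, a log2 fold change of 0.24 (SE 0.12). Its unadjusted p was 0.0456 and its adjusted p 0.231, so it was not called. Over the alternatives the adjusted p of Fis1 ranged from 0.0539 to 0.259, and none called it.

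Mff (chromosome 1, 82724890 to 82752390), a main receptor for DRP1, had deposited values of 423 in WT and 377 in KO, a log2 difference of -0.17 (SE 0.13, adjusted p = 0.569). Mief1 (chromosome 15, 80233964 to 80253372), which also recruits DRP1, had 459 and 446, a log2 fold change of -0.04 (SE 0.12, adjusted p = 0.906) in the deposited table that turned to 0.04 when centred on the most abundant genes. The paralog Mief2 had 347 in WT and 281 in KO in that table (-0.31, adjusted p = 0.0787) and was not called. Summed per kb, the 3 fusion members stood at 819 in WT and 652 in KO and the 4 fission members at 1667 and 1845, a ratio of 0.492 and 0.353. Fis1 supplies most of the fission sum, and no error could be attached to the ratio.

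The mitophagy members gave 0 calls of 2 by DESeq2's deposited p, with 1 at an unadjusted p under 0.05. Pink1 (chromosome 4, 138313409 to 138326296), the kinase that gathers on damaged mitochondria, had 3344 in WT and 2651 in KO in the authors' deposited table, 79.3% of WT with an interval of 66.6% to 94.4%. Its log2 fold change was -0.34 (SE 0.13), its unadjusted p 0.00911 and its adjusted p 0.077 in that deposited table, so it was not called. By unadjusted p, Pink1 stood at place 1968, with 1659 genes called. Centred on the most abundant genes its log2 fold change was -0.25 (adjusted p = 0.227), and without the length and level trend -0.21 (adjusted p = 0.389). Bnip3 (chromosome 7, 138890836 to 138909506), a receptor raised by hypoxia, had 3499 in WT and 3813 in KO in the authors' deposited table. That is a log2 fold change of 0.12 with the widest SE of the members (0.17, adjusted p = 0.818), and an interval of 86.1% to 138% of WT. Its paralog Bnip3l had 1201 and 1326 (0.14, adjusted p = 0.569) in the deposited table. Bnip3 is uncertain for another reason: 5 other genes of GENCODE M21, 3 of them pseudogenes, matched its transcript at 95.2% to 99.7% identity over 347 to 858 bases, and the sources used here do not say how such reads were counted. A smaller stretch of Mief1, 213 bases, is shared with the transcript AC140267.1.

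Immt (Entrez ID 76614; chromosome 6, 71831091 to 71875266) had the smallest p of the members. It encodes MIC60, the core of the MICOS complex that holds cristae junctions to the outer membrane. The authors' deposited table gives 1810 for WT and 1391 for KO, 76.8% of WT with an interval of 66.4% to 88.9%. The log2 fold change was -0.38 (SE 0.11, adjusted p = 0.00729) in that deposited table. Centred on the most abundant genes it was -0.30 (adjusted p = 0.0504), and without the length and level trend -0.26 (adjusted p = 0.12), so the call was lost in both. Over the alternatives its adjusted p ranged from 0.00478 to 0.12.

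Of the 6 other MICOS subunits 3 fell and 3 were not called. The MICOS subset was not in the plan, and the cristae list was chosen with earlier results of these data known. Counts here are to be read beside the 5.56% of all genes, 10.9% of genes of like level and 16.1% of mitochondrial genes called lower. A log2 fold change below 0 was found for 46.9% of all genes and 70.1% of mitochondrial genes. All 7 MICOS subunits had a log2 fold change below 0 in the authors' deposited table and under every centring tried, with a median of -0.37. With Immt, 4 of them fell, and 1, Chchd6, was called when centred on the most abundant genes or with the trend removed. Chchd6 (MIC25) fell from 72.6 to 25.0, a log2 fold change of -1.54 (SE 0.33, adjusted p = 9.9e-05), in the authors' deposited table. Chchd6 was not tested over genes with a mean value of 100 or more, which its level does not reach. Chchd3 (MIC19), which binds MIC60 directly, fell from 1774 to 1412 (-0.33, adjusted p = 0.00464) and Apoo (MIC26) from 351 to 266 (-0.40, adjusted p = 0.0419) in that deposited table. Apool (MIC27) had -0.37 (adjusted p = 0.0704), Micos13 -0.17 (adjusted p = 0.437) and Micos10 -0.12 (adjusted p = 0.739) as deposited log2 fold changes, and none of these was called. Over the whole list of 14 cristae genes, 7 fell and 0 rose, 13 had a log2 fold change below 0, and the median was -0.31. The prohibitins, which form inner membrane rings, were among them, with Phb falling from 2530 to 1823 (-0.47, adjusted p = 0.00187) and Phb2 from 3830 to 3077 (-0.32, adjusted p = 0.0285) by the authors' deposited table. Mtx2, an outer membrane partner of MICOS named after its value was seen, was the other (-0.31, adjusted p = 0.0128, as deposited). Of these 7 calls, 2 were left when centred on the most abundant genes or with the trend removed, those of Chchd6 and Phb.

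**Figure D3:**
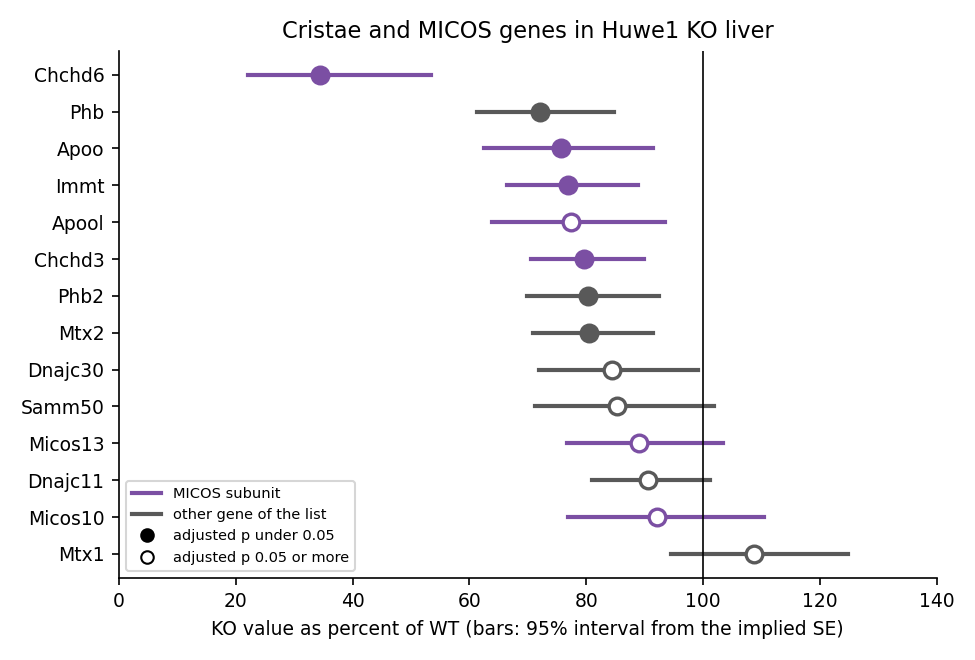
KO value as a percent of WT for the 14 cristae genes, with bars for the 95% interval from the implied SE, purple for MICOS subunits, grey for the others and filled points for an adjusted p under 0.05. Chchd6 stands lowest at 34.4% of WT, and Mtx1 is the 1 gene with a point value above 100%.

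Further fusion and fission genes were read from lists chosen for their roles. Their counts are to be read beside the 5.56% of all genes and 16.1% of mitochondrial genes called lower, and the 4.41% and 1.88% called higher. Of 12 fusion genes 2 fell and 0 rose, with a median log2 fold change of -0.12 in the authors' deposited table. Beside Mfn2 this was Miga2, mitoguardin 2 of the outer membrane, which fell from 1518 to 724 (-1.07, SE 0.21, adjusted p = 1.33e-05) in that deposited table. Of 17 fission genes 2 fell and 1 rose, with a median of -0.04 in the deposited table that turned to 0.04 when centred on the most abundant genes. Mtfp1, an inner membrane protein that promotes fission, fell from 440 to 276 (-0.67, adjusted p = 0.00049), and the phosphatase Pgam5 from 306 to 226 (-0.44, adjusted p = 0.00555) by the authors' deposited table. Inf2, a formin that builds actin where the endoplasmic reticulum (ER) meets mitochondria, rose from 1063 to 1311 (0.30, adjusted p = 0.0468) in the deposited table, a call lost with the trend removed (adjusted p = 0.144), when centred on genes with a mean value of 10 or more, and at an adjusted p under 0.01.

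The calls in the wider mitophagy lists are to be read beside the 16.1% of mitochondrial genes and 10.9% of genes of like level that were called lower. Of 11 receptors 3 fell and 0 rose, with a median log2 fold change of -0.06 in the authors' deposited table that turned to 0.02 when centred on the most abundant genes. Nipsnap1, which marks damaged mitochondria for autophagy, fell from 5161 to 3607 (-0.52, adjusted p = 0.00231) and the anchored receptor Fkbp8 from 5946 to 4727 (-0.33, adjusted p = 0.000322) in that deposited table, and Phb2 was the third. The Fkbp8 call was lost with the trend removed (adjusted p = 0.0563), and that of Phb2 also under the centring on abundant genes. Mcl1, an anti-death protein of the outer membrane, had 0.27 (adjusted p = 0.162) in the deposited table and was called higher under both scalings (adjusted p = 0.0393 and 0.0397). Of 21 genes of the PINK1 route 2 fell and 0 rose, a share no higher than those backgrounds, with a median of -0.09 in the deposited table that became 0.003 with the trend removed. These were Pgam5 and Vcp, the ATPase that pulls ubiquitin-tagged proteins such as mitofusins from the membrane, from 5814 to 4424 (-0.39, adjusted p = 0.00218) by the authors' deposited table. The outer membrane ubiquitin ligases Marchf5 and Mul1 were not called, with deposited log2 fold changes of -0.12 and -0.03 (adjusted p = 0.647 and 0.931).

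**Figure D4:**
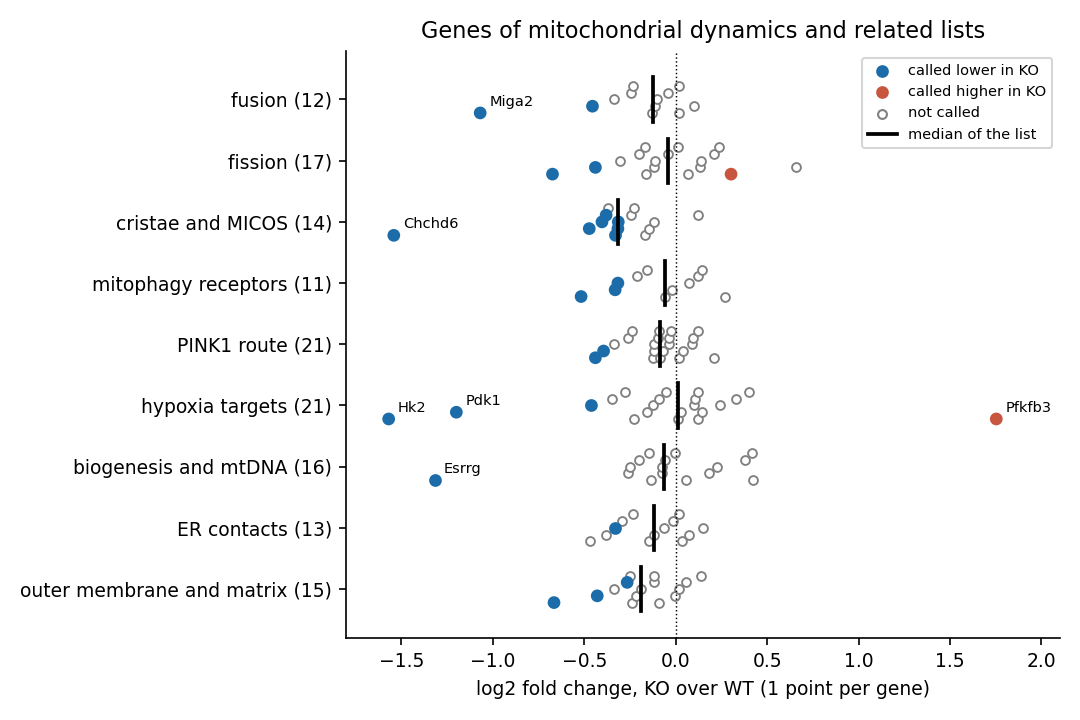
Log2 fold change in KO relative to WT for each gene of the 9 lists, with the number of genes beside each name, blue for genes called lower, red for genes called higher, open points for genes not called and a black bar for the median of the list. The cristae list has the lowest median (-0.31), and 22 of 131 genes were called lower against 2 higher. Of all mitochondrial genes 16.1% were called lower and 1.88% higher.

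Of 13 listed ER contact genes 1 fell and 0 rose, with a median log2 fold change of -0.12 in the deposited table. Of all genes 5.56% were called lower, and of mitochondrial genes 16.1%. The ER tether Vapb, which holds ER membranes to mitochondria, fell from 1282 to 1017 (-0.33, adjusted p = 0.0157) in that deposited table, a call lost when centred on the most abundant genes (adjusted p = 0.0963). Rmdn3, the mitochondrial partner of VAPB, had -0.29 (adjusted p = 0.0639) in the deposited table.

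A pair of lists covers mitochondrial biogenesis with mtDNA upkeep, and hypoxia targets. Whether their genes act on the members was not tested. Their counts are to be read beside the 5.56% of all genes called lower and 4.41% called higher. In the members' range of mean values these shares were 10.9% and 5.73%. Of 16 genes of mitochondrial biogenesis and mtDNA upkeep 1 fell and 0 rose, with a median log2 fold change of -0.06 in the authors' deposited table. Centred on the most abundant genes the median was 0.02, with 2 higher and 1 lower. The gene that fell was Esrrg, an orphan receptor that drives oxidative genes, from 56.6 to 22.7 (-1.32, adjusted p = 0.014) in that deposited table, a call lost at an adjusted p under 0.01 and not tested over genes with a mean value of 100 or more. The coactivator Pprc1 had 0.42 (adjusted p = 0.0618) and the transcription factor Nrf1 0.38 (adjusted p = 0.118) in the deposited table, and both were called higher under that centring (adjusted p = 0.0165 and 0.0377). Pprc1 was also called higher under both filters on mean values and at an adjusted p under 0.1. The coactivator Ppargc1a had 117 in WT and 133 in KO and Esrra, a receptor known to act on Mfn2, 538 and 628 in the authors' deposited table, and neither was called (adjusted p = 0.846 and 0.332). Of 21 hypoxia targets, Bnip3 among them, 3 fell and 1 rose, with a median of 0.01 in the deposited table. By the deposited log2 fold changes, hexokinase 2 (Hk2, -1.57, adjusted p = 0.00097), the kinase Pdk1 (-1.20, adjusted p = 9.75e-05) and Pgk1 of glycolysis (-0.46, adjusted p = 0.0245) fell. Pfkfb3, an activator of glycolysis, rose (1.75, adjusted p = 3.93e-06) in the deposited table. Hk2 had 66.2 in WT and 22.3 in KO, and it was not tested over genes with a mean value of 100 or more. Pgk1 was not called when centred on the most abundant genes (adjusted p = 0.0815) or with the trend removed (adjusted p = 0.156). Vegfa (0.01) and Hif1a (0.03) were not called in the deposited table (adjusted p = 0.987 and 0.965).

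Genes often used to gauge how much mitochondrion a tissue holds gave a share of lower calls near the 16.1% of all mitochondrial genes. Of 15 genes of the outer membrane and matrix 3 fell and 0 rose, with a median log2 fold change of -0.19 in the authors' deposited table. Citrate synthase (Cs) fell from 3586 to 2262 (-0.67, adjusted p = 3.24e-08), cytochrome c (Cycs) from 2683 to 1993 (-0.43, adjusted p = 0.0083) and the porin gene Vdac3 from 1413 to 1175 (-0.27, adjusted p = 0.0271) in that deposited table. The Vdac3 call was lost under both scalings named above (adjusted p = 0.18 and 0.254) and that of Cycs with the trend removed (adjusted p = 0.0988). The porin Vdac1 had -0.12 and the import receptor Tomm20 -0.12 in the deposited table, and neither was called (adjusted p = 0.674 and 0.658). How far the lower Mfn2 and Immt values move with mitochondrial mass was not tested.

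Which members were called thus depended on the reference point. Over all genes the authors' deposited table gives 734 higher and 925 lower calls, and centred on the most abundant genes 1168 and 625. That centring raises every log2 fold change by 0.08. Of the genes annotated to the mitochondrion, 223 were called lower and 26 higher as deposited, 152 and 50 after that centring, and 164 and 33 without the trend in length and level.

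**Figure D5:**
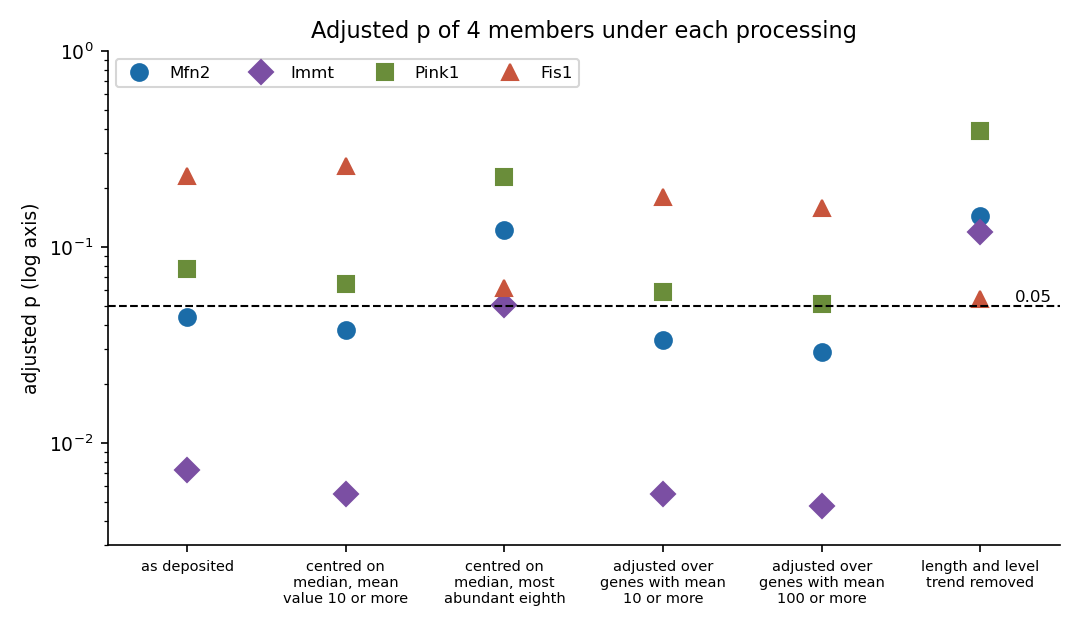
Adjusted p (log axis) of Mfn2, Immt, Pink1 and Fis1 as deposited and under 5 other processings, with a dashed line at 0.05. Mfn2 and Immt lie under the line in 4 of the 6 columns and above it when centred on the most abundant genes or with the trend removed, while Pink1 and Fis1 lie above it in all 6.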

How the data were processed

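RNA of 4 WT and 4 KO livers was sequenced by an outside company, per the labels' protocols, and livers were grouped by title. The submitters' processing notes name mm10 and DESeq2. The sources used here do not give the aligner, counting, strand or filters. The authors deposited 1 normalized signal per gene and group, the log2 fold change, and unadjusted and adjusted p-values, per the file headers. The deposited adjusted p-value matches Benjamini and Hochberg's method applied to all 16640 genes within 1.74e-06. The deposited signals sum to 17347900 in WT and 17533100 in KO. For 707 genes with a mean value under 0.2, the log2 fold change was between 0.11 and 0.12 in size, which is how fold changes shrunken toward 0 would look, though the sources used here do not say that they were.

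The planned count model needs values per liver and could not be fitted, so calls are the authors'. The implied SE is the size of the fold change divided by the normal score of its p, which assumes a Wald test. Nothing in the labels says that the livers came from separate litters. The p-values weigh the difference of the groups against the spread between livers of a group, for these 8 livers only. Lists (9 pathway, 8 marker; 196 entries, 1 unmatched) were matched by symbol or synonym in RefSeq (GRCm38.p6), where 16608 gene IDs were found. All members are named, and of each list the called genes, up to 6 by size of change. The paralogs Mief2 and Bnip3l and some other genes that were not called are named too, outside this rule. Some listed genes are not reported here and were left out of the lists. The members and lists were chosen with earlier results of these data known. Near copies were sought with megablast at 95% identity over 200 bases. The implied SE, the Benjamini and Hochberg adjustment and a recentring by a constant were tested on simulated data. The filters on mean values and the removal of the trend were not. Alternatives were other centrings, filters on mean values (10 or 100), removal of the trend over 5 length and 10 level classes, and thresholds of 0.1 and 0.01. The tools were scipy 1.17.1, pandas 2.3.3, numpy 2.4.6 and matplotlib 3.10.9 under Python 3.11.15.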

Additional observations from a re-analysis of the deposited data

How the results depend on the processing

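The filters on mean values and the other thresholds keep the deposited fold changes, so no direction could change under them. Of 70 combinations of 10 members and 7 alternatives, 63 kept their direction and their side of the threshold, 5 lost a call (2 for Immt, 3 for Mfn2), 1 gained one (Pink1 at an adjusted p under 0.1) and 1 changed sign (Mief1, 0.0393 when centred on the eighth of genes with the highest values). The count of members called lower was 2 as deposited, 0 with that centring, 0 with the length and level trend removed and 1 at an adjusted p under 0.01. The listed genes called lower were 22 as deposited, 13, 13 and 14 under the same alternatives, with 15 of all 24 deposited calls kept under the centring and 13 with the trend removed. Those called higher were 2 as deposited, 5 with that centring, 1 when centred on genes with a mean value of 10 or more and 1 at an adjusted p under 0.01. The stricter threshold calls fewer genes by construction, and for the others the cause was not tested. The highest member exceeded the lowest 22.1-fold per kb and 8.27-fold per gene in WT. The labels used here give no pairing of livers, and no paired analysis was possible because the table holds 1 value per gene and group. For the same reason leaving out each liver and a second count tool were not run, and the spread between livers behind each level is not shown here.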
